A study of Mus musculus with 32 samples.

Results

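DNA replication and mitosis were followed through 39 genes, chosen by name from those that license replication origins, make DNA precursors, drive entry into mitosis, watch the spindle and move chromosomes. All 39 were found among the 38201 genes of both per-replicate gene tables, and all 39 passed the filter on low values in both. The tables describe mouse P19 cells, an embryonal carcinoma line, 36 h after transfection with esiRNA, a mixture of short RNAs made by digesting a longer double-stranded RNA of the target. The groups were knockdowns of the 7 SR proteins SRSF1 to SRSF7, 1 at a time, which are splicing factors that also take part in mRNA export, and a control esiRNA against GFP. Each group had replicates A and B of poly(A)+ RNA from the cytoplasm and from the whole cell, 32 libraries in all, so that every knockdown was compared with the same 2 GFP libraries in a fraction. Values are scaled estimated reads per gene, and changes are differences of log2(value + 1), knockdown minus GFP, so that a change of 1 is a doubling. They were tested with limma over all genes, with the replicate letter as a block, and a change passed when its p, adjusted by Benjamini-Hochberg over all genes, was below 0.05.

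A replication origin is licensed in G1 when the origin recognition complex, which contains ORC1, loads the MCM2-7 helicase with the help of CDC6 and CDT1. Cyclin E and the transcription factor E2F1 open S phase, ribonucleotide reductase and thymidylate synthase supply deoxynucleotides, and PCNA clamps the polymerases to DNA. Cyclin B with CDK1 brings the cell into mitosis, where the checkpoint proteins BUB1, BUBR1 (encoded by *Bub1b*), MAD2 (encoded by *Mad2l1*) and TTK hold back CDC20 until every kinetochore has caught microtubules, and ZW10 and ZWILCH belong to the complex that brings MAD1-MAD2 to kinetochores. Transcription of many of these genes is held down in quiet cells and opened by E2F factors in late G1, or through the CHR element and the CCAAT box toward G2. Embryonal carcinoma cells divide rapidly and express these genes at high levels.

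E2F and CHR letters were spread unequally over the promoters of some of these roles, while CCAAT was common in most. RefSeq promoter windows of 300 bases (250 before to 50 after the start, GRCm38.p6) were found for 33 of the 39 genes. No window was used here for *Ccna2*, *Zwilch*, *Incenp*, *Aurkb*, *Mcm4* and *Kif20a*. The windows were searched on both strands for the CHR letters TTTGAA, for CCAAT and for the E2F letters TTTCCCGC, TTTGGCGC, TTCCCGCC and TTGGCGCC. The E2F strings overlap one another, and a window counted once. CHR letters were in 13 of the 33 windows (39.4%, against 18.1% of all 27025 promoters), CCAAT in 22 (66.7%, against 37.9%) and E2F letters in 11 (33.3%, against 3.87%). CHR and CCAAT stood together in 11 windows (33.3%, against 7.12%). By role, E2F letters were in 6 of 8 windows of origin licensing genes and 1 of 4 of precursor genes, while CHR letters were in 1 and 0 of them. CHR letters were in 4 of 5 windows of the cyclins and kinases of mitotic entry and in 4 of 6 of the spindle checkpoint genes, where E2F letters were in 2 and 1. CCAAT did not separate these roles, with 6 of 8, 3 of 4, 5 of 5 and 4 of 6 windows in the same order. Of 5 kinetochore windows, CHR letters were in 2 and E2F letters in 1. The 2 windows of G1/S control genes and the 1 of the chromosomal passenger complex held no match. Each role has few windows. Such a match describes the sequence and is not a measured site. Windows of 30 bases follow, with the match in capitals, for licensing genes with E2F letters and mitotic genes with CHR letters.
Mcm5, E2F letters, chr8:75109349-75109378 (+): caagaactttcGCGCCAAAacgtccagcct
Mcm6, E2F letters, chr1:128359734-128359763 (-): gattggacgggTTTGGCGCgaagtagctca
Cdc6, E2F letters, chr11:98908002-98908031 (+): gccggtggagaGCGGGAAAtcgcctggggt
Cdk1, CHR, chr10:69352910-69352939 (-): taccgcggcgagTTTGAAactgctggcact
Cdc20, CHR, chr4:118437344-118437373 (-): agacagttgggtTTTGAAggagccaatgaa
Ccnb2, CHR, chr9:70421533-70421562 (-): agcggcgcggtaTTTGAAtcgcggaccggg
Bub1b, CHR, chr2:118598231-118598260 (+): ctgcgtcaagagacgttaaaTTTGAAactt
The *Mcm5* and *Cdc6* matches lie on the opposite strand, and the *Cdc20* window also holds a CCAAT downstream of the CHR letters. The *Mcm6* window holds a CCAAT on the opposite strand, upstream of the E2F letters.

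The libraries summed to between 32128467 and 38371995 scaled reads in the cytoplasm and between 29596616 and 32831667 in the whole cell. Between 37.8% and 77% of the targeted mRNA was left in the cytoplasm and between 48.8% and 68.7% in the whole cell, so that the knockdowns were partial. The fall of the target passed for all 7 in the whole cell but not for *Srsf2*, *Srsf5* and *Srsf7* in the cytoplasm. The 10 marker genes of embryonal carcinoma were all detected, and their sum ranged from 82562 to 145213 in the whole cell. The sum rests on the high genes: *Pou5f1* was at 23944 to 37255 there, while *Zfp42* was low, at 11.0 to 43.8. Some marker lists of other cell types moved with the letter, most of them in both fractions. The neuron, mesoderm and blood lists overlapped between the letters in both. The pancreas list did not separate in the whole cell (3.21 to 8.99 in A, 2.84 to 7.32 in B). All 6 pancreas markers together were at 18.1 to 518 in the 8 cytoplasmic A libraries against 6.18 to 14.9 in the 8 B libraries, and the 4 epithelial keratin and adhesion genes at 6757 to 10174 against 18498 to 28965, of which *Epcam* varied least, at 2681 to 4394 over all 16. The endoderm list was at 139 to 226 in cytoplasmic A libraries against 342 to 454 in B, and the muscle and fibroblast list at 671 to 1222 against 1545 to 3475. In the whole cell the epithelial list separated too, at 6525 to 8839 in A against 13191 to 17718 in B. So did the endoderm list there (87.7 to 173 against 296 to 433) and the muscle and fibroblast list (872 to 1203 against 1280 to 2714). Which cells this RNA came from and its part in the results were not tested. In such bulk RNA, fewer dividing cells and less RNA per dividing cell cannot be told apart.

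Per length, the members covered a wide range in control cells. By the authors' FPKM of both GFP whole-cell replicates combined, *Top2a*, the topoisomerase that untangles chromosomes, was the highest at 344, followed by the survivin gene *Birc5* (236), *Pcna* (217) and *Mcm7* (186). The lowest were *Cenpo* (22.1), *Zw10* (20.6) and *E2f1* (16.2). Over the 16 whole-cell libraries most members stayed within narrow limits. *Top2a* ranged over 28747, 33697 and 37256 scaled reads (lowest, median and highest library), and the cyclin-dependent kinase gene *Cdk1* over 3448, 3861 and 4781. *Mcm5* ranged over 7677, 8315 and 10509, and the Aurora B kinase gene *Aurkb* over 3402, 3770 and 4334. Other members ranged more widely. *Orc1* ranged over 1247, 1703 and 3189, *Cdc6* over 2446, 3057 and 5569, and the cyclin E gene *Ccne1* over 1756, 2321 and 3972, and the highest library of each was an A library (SRSF3 for *Orc1* and *Cdc6*, SRSF4 for *Ccne1*).

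**Figure D1:**
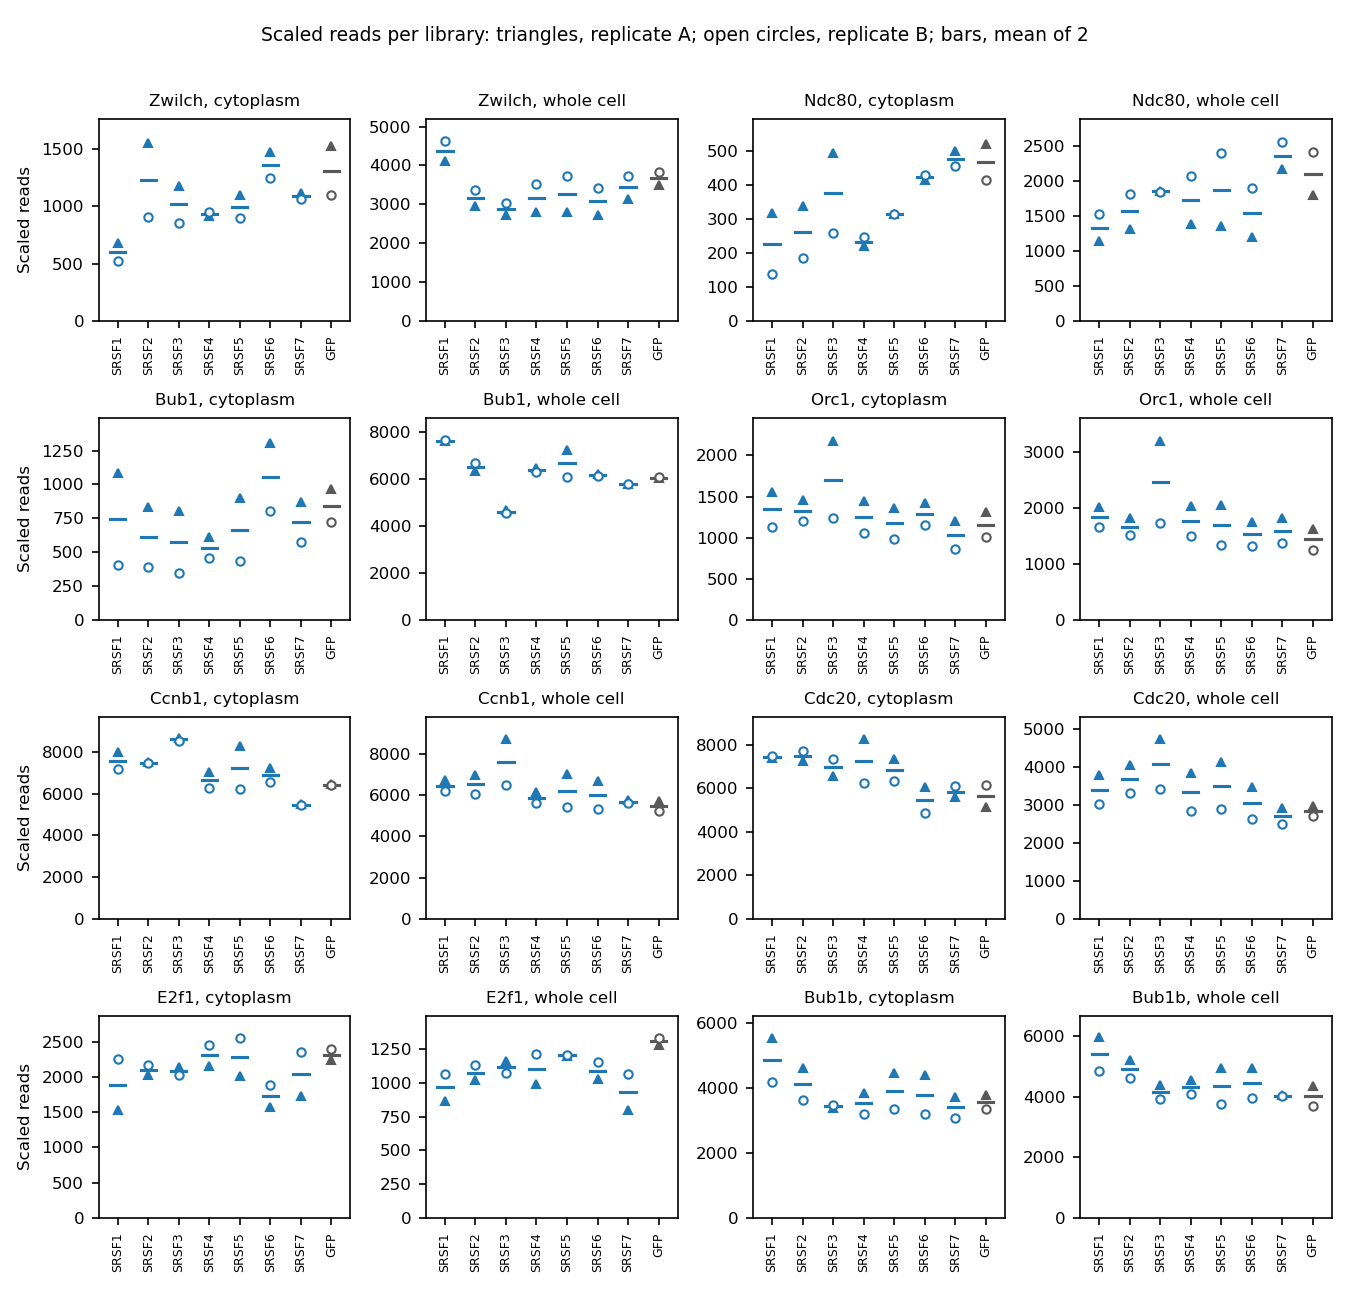
Scaled reads of 8 genes in each of the 32 libraries, where triangles are replicate A, open circles replicate B and each bar is their mean. The knockdowns stand left of GFP, which is gray. *Zwilch* in the cytoplasm was at 683 and 519 after SRSF1 knockdown and between 858 and 1552 in all other groups.

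Several mitotic transcripts were sparse in the cytoplasm. Cytoplasmic level was described as the share of a gene in the cytoplasmic library over its share in the whole-cell library. The 2 tables were scaled separately, so this ratio orders the genes and was not tested. In GFP cells it ran from 0.0455 for *Cenpe*, the kinetochore motor CENP-E, to 1.82 for the polo-like kinase gene *Plk1*, which is a 40.1-fold span. The median of the 39 was 0.978, against 0.832 over 12560 genes with enough reads in both fractions, and 17 members were below that median and 22 above it. After *Cenpe* came *Cenpf* (0.0709), *Bub1* (0.125), the spindle motor gene *Kif11* (0.183), *Ndc80* (0.206), which encodes a subunit of the outer kinetochore, the checkpoint kinase gene *Ttk* (0.214), *Top2a* (0.242) and *Zwilch* (0.323). At the other end were *Plk1*, *Cdc20* (1.77), *Cdt1* (1.76), *Ccne1* (1.73) and *Mcm5* (1.67). By role the median ratio was 0.206 for the 5 kinetochore and centromere genes and 0.242 for the 3 motor and topoisomerase genes, against 1.30 for the 9 origin licensing genes and 1.27 for the 6 cyclins and kinases of mitotic entry. Among licensing genes *Mcm4* stood apart at 0.374, and the other MCM genes were between 1.05 and 1.67. Across the 39 members the ratio went down with the length of the annotated exons (Spearman's rho -0.38, as a description, since the genes share libraries). Replicate A was above replicate B in all 8 groups for *Bub1*, *Ttk*, *Kif11*, *Ndc80*, *Top2a*, *Cenpe* and *Zwilch*, and in no group for *Mcm5*, *Cdt1* and *Cdc20*.

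**Figure D2:**
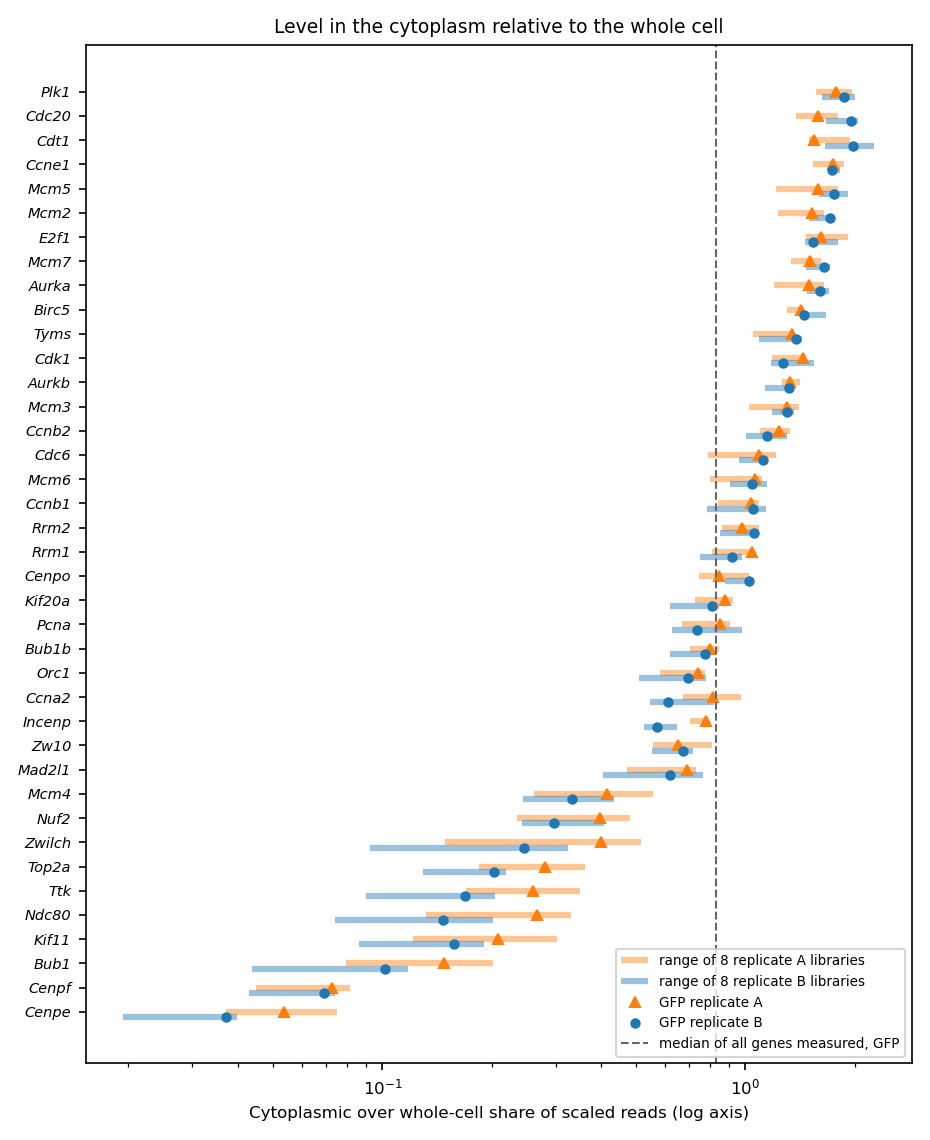
Cytoplasmic over whole-cell share of scaled reads for the 39 genes on a log axis, with orange triangles for GFP replicate A, blue circles for GFP replicate B and bands for the range of the 8 libraries of each letter. The dashed line is the median of all genes measured in GFP, 0.832, and the genes at the bottom (*Cenpe*, *Cenpf*, *Bub1*) lie far to its left.

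Against GFP, 32 member changes passed in the 14 comparisons of knockdown and fraction, and they involved 23 members. The other 16 members passed in none, among them *Cdk1*, *Ccne1*, *Top2a*, *Ccna2*, *Mcm3*, *Mcm6*, *Mcm7*, *Ttk* and *Kif11*. SRSF3 knockdown in the whole cell had 14 calls, SRSF1 knockdown 10, and 3 were found for each of these knockdowns in the cytoplasm, while SRSF2 and SRSF7 knockdown gave 1 each in the whole cell. With only the libraries compared in the fit, the counts were 1 for SRSF3 and 13 for SRSF1 in the whole cell and 0 and 10 in the cytoplasm. The changes were small, with 1.15 on the log2 scale as the largest. The calls rest on the letter as a block: without it 30 of the 32 were lost, and *Bub1* (adjusted p = 0.016) and *Mad2l1* (adjusted p = 0.034) after SRSF3 knockdown in the whole cell were kept. When each library of a comparison was left out in turn, 6 of the 32 passed every time (*Orc1*, *Ccnb1*, *Bub1*, *Cdc20* and *Kif20a* after SRSF3 knockdown in the whole cell, and *Zwilch* after SRSF1 knockdown in the cytoplasm).

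**Figure D3:**
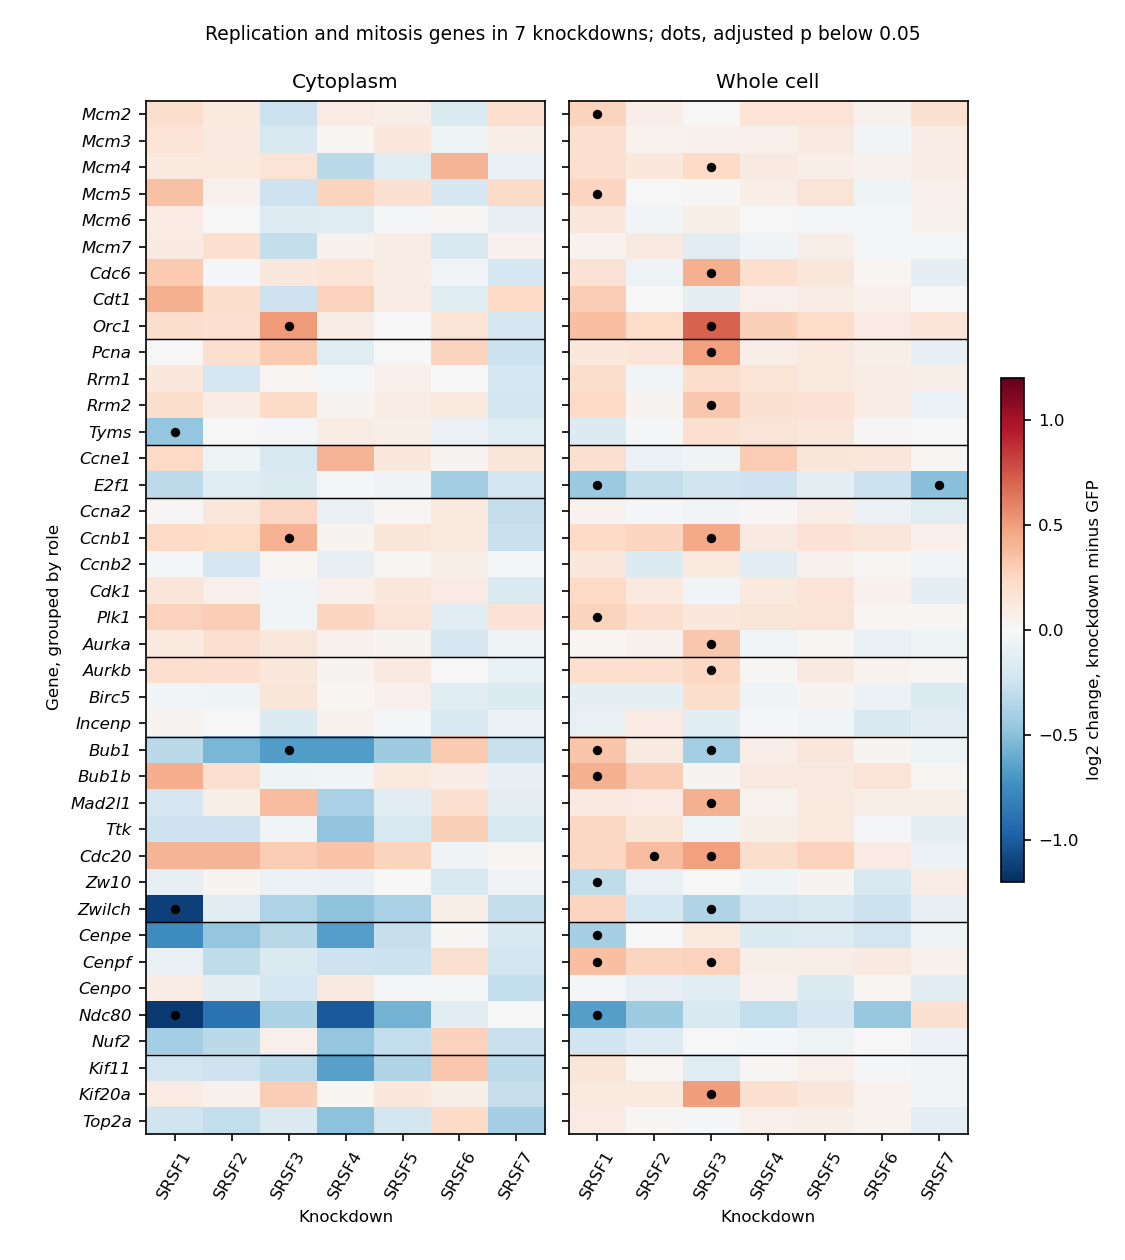
log2 change of the 39 genes, knockdown minus GFP, in the cytoplasm (left panel) and whole cell (right panel), grouped by role between horizontal lines. Red is higher and blue lower than GFP on a scale of ±1.2, and dots mark the 32 changes that passed, with *Zwilch* and *Ndc80* after SRSF1 knockdown in the cytoplasm as the deepest blue.

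After SRSF1 knockdown, *Ndc80*, *E2f1*, *Cenpe* and *Zw10* fell in the whole cell, and *Bub1b*, *Cenpf*, *Bub1*, *Mcm2*, *Mcm5* and *Plk1* rose. Of the 39 members, 6 rose (15.4%, against 4.6% of all 18548 genes tested) and 4 fell (10.3%, against 6.32%), and the median change was 0.17 over the members and 0.00 over all genes. An unadjusted p below 0.05 was found for 22 of the 39, against 26.2% of all genes. Of 9 licensing genes *Mcm2* and *Mcm5* rose. *Mcm5* had 10509 and 9243 scaled reads in SRSF1 A and B, against 8244 and 8233 in GFP (log2 change 0.26, SE 0.08, adjusted p = 0.0391), and *Mcm2* had 12731 and 10537, against 10141 and 9110 (0.27, SE 0.07, 0.0256). Neither gene overlapped between the groups. Of 7 checkpoint genes *Bub1b* and *Bub1* rose and *Zw10* fell. *Bub1b* had 5960 and 4852 scaled reads after SRSF1 knockdown, against 4349 and 3693 in GFP (0.42, SE 0.09, 0.00624). *Bub1* had 7585 and 7655, against 6025 and 6068 (0.33, SE 0.08, 0.016), with close replicates. *Zw10* had 1400 and 1441, against 1711 and 1810 (-0.31, SE 0.08, 0.0274). Of 5 kinetochore genes *Ndc80* and *Cenpe* fell and *Cenpf* rose. *Ndc80* had 1144 and 1527 scaled reads, against 1800 and 2417 in GFP (-0.66, SE 0.14, 0.00703). It had 1201 and 1905 after SRSF6 and 1322 and 1818 after SRSF2 knockdown, but 2175 and 2563 after SRSF7 knockdown. *Cenpe* had 4358 and 4617, against 5689 and 6174 (-0.40, SE 0.11, 0.0302), and *Cenpf* had 8878 and 7992, against 6739 and 6396 (0.36, SE 0.10, 0.0238). The transcription factor gene *E2f1* was at 869 and 1066, against 1281 and 1336 (-0.44, SE 0.11, 0.0195). In the whole cell all 14 knockdown libraries of *E2f1* were below both GFP libraries, which every comparison shares. The last call was a rise of *Plk1*. Without SRSF1 replicate A none of the 10 passed, without GFP replicate A 1, without SRSF1 replicate B 2, and without GFP replicate B 7 did.

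In the cytoplasm after SRSF1 knockdown no member rose (background 2.44%) and 3 of 39 fell (7.69%, against 3.47% of 17557 genes). An unadjusted p below 0.05 was found for 11 members, against 21.8% of all genes, and without the block none passed. *Zwilch* (ENSMUSG00000032400, chr9:64137144-64173104, mm10) was at 683 and 519 scaled reads in SRSF1 A and B, against 1523 and 1101 in GFP (-1.12, SE 0.17, adjusted p = 0.00147). It passed with each library left out, but not without the block (0.168). *Ndc80* was at 316 and 137, against 521 and 413 (-1.15, SE 0.28, 0.0249), and *Tyms*, which encodes thymidylate synthase, at 2033 and 2129, against 2839 and 2925 (-0.47, SE 0.13, 0.0442). The groups did not overlap with GFP for any of the 3. Against the same GFP libraries *Ndc80* was also low after other knockdowns, at 219.9 and 247 for SRSF4, 315 and 315 for SRSF5 and 338 and 186 for SRSF2. It was nearer GFP after SRSF6 (415 and 429) and SRSF7 knockdown (498 and 454). *Ndc80* passed only without SRSF1 replicate A, at an adjusted p of 0.0328, and *Tyms* in none of the fits with a library left out.

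*Zwilch* differed in direction between the 2 fractions. In the whole cell it was at 4125 and 4634 scaled reads after SRSF1 knockdown, against 3507 and 3836 in GFP. This did not pass, but both SRSF1 libraries were above every other library of that fraction. The difference between its cytoplasmic and its whole-cell change was -1.37 (SE 0.19, adjusted p = 0.00513). It was the one member that passed this test in any knockdown, where 0.0157% of 19073 genes were relatively lower after SRSF1 knockdown, and it passed in 5 of 8 fits with 1 library left out but neither without the block (0.936) nor in a fit of its own libraries and those of GFP alone (0.119). It was lost without SRSF1 replicate A or GFP replicate B of the whole cell, or GFP replicate A of the cytoplasm.

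The whole-cell excess of *Zwilch* reads after SRSF1 knockdown was greatest in a pair of exon bins. In the exon-bin tables, where each gene is cut into numbered stretches of annotated exon, adjoining bins E026 (chr9:64155220-64155502, 283 bases) and E027 (chr9:64155503-64155750, 248 bases, mm10, minus strand) were higher after SRSF1 knockdown than the rest of the gene. E026 held 372 and 437 scaled reads in SRSF1 A and B, against 103 and 200 in GFP, and E027 held 228 and 277, against 58.3 and 120. Relative to the gene's other bins the log2 changes were 1.28 (SE 0.16, adjusted p = 5.93e-11) and 1.34 (SE 0.18, 3.93e-09, limma's diffSplice over 179960 bins). Both passed with each library left out, without the block and with edgeR. On their 3′ side the bins adjoin E025 and E024, and 262 bases of the genome separate them from E028 on the 5′ side. The neighbours differed less: E025 was at 140 and 166 after SRSF1 knockdown, against 122 and 149 in GFP, and E028 at 104 and 70.4, against 72.7 and 68.7. As whole reads, the bins E026 and E027 held 588 of 7461 reads in SRSF1 A (7.88%, 95% Wilson interval 7.29% to 8.51%) and 709 of 8503 in SRSF1 B (8.34%, 7.77% to 8.94%). In GFP they held 158 of 6389 (2.47%, 2.12% to 2.88%) and 344 of 8158 (4.22%, 3.80% to 4.67%), and in the other knockdowns between 1.77% and 4.37%. Among cytoplasmic reads of *Zwilch* the bins held 6 of 1371 and 6 of 1056 after SRSF1 knockdown (0.438% and 0.568%), against 2 of 2619 and 3 of 2167 in GFP. SRSF3 A held 0 of 2119, which allows a share of up to 0.142%. These intervals and limits cover counting error only. In every group the stretch was read in the whole cell and at 6 reads or fewer in the cytoplasm.

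**Figure D4:**
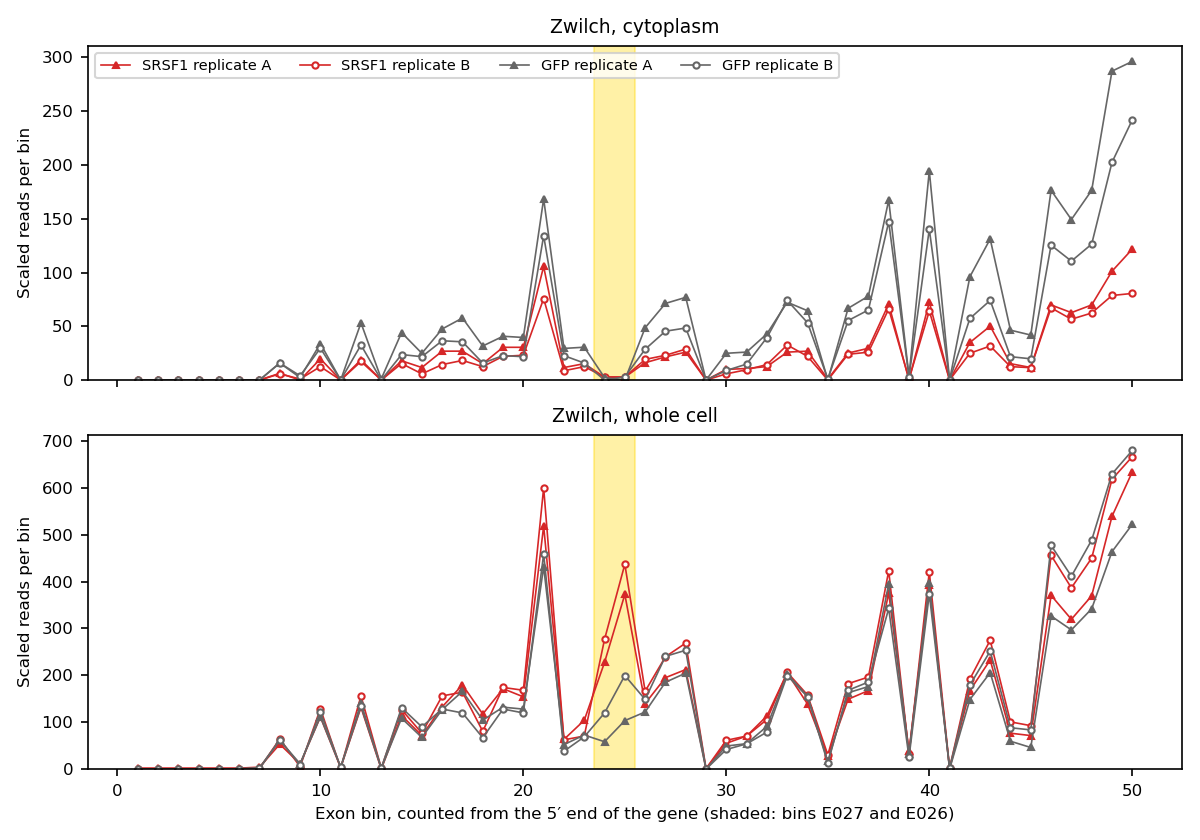
Scaled reads of *Zwilch* in each exon bin, counted from the 5′ end of the gene, in the cytoplasm (top) and in whole cells (bottom) after SRSF1 knockdown (red) and in GFP (gray). The shaded bins E027 and E026 reach 277 and 437 in SRSF1 B of the whole cell and stay at or below 3 in the cytoplasm, where most other bins are lower after SRSF1 knockdown than in GFP.

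SRSF3 knockdown gave the most calls, among the members as over all genes, and the member calls ran mainly upward in the whole cell. There 12 of 39 rose (30.8%, against 16.1% of all genes) and 2 fell (5.13%, against 17%), with a median change of 0.05 over the members and 0.00 over all genes. An unadjusted p below 0.05 was found for 17 of the 39, a share near the 43.1% of all genes. The change was unequal between the replicates: *Orc1* was at 3189 in SRSF3 A and 1737 in SRSF3 B, against 1630 and 1247 in GFP A and B (0.71, SE 0.12, adjusted p = 0.00042). *Orc1*, *Cdc6* and *Mcm4* were the 3 of 9 licensing genes that rose. *Cdc6* was at 5569 and 2937, against 3353 and 2646 (0.43, SE 0.13, 0.0165), so that the groups overlapped but both letters were higher than their own control. Of 4 precursor and clamp genes *Pcna* and *Rrm2* rose. *Pcna* was at 11503 and 6925, against 6736 and 5882 (0.49, SE 0.11, 0.00375), while *Rrm2*, the small subunit of ribonucleotide reductase, was at 5795 and 3534, against 4108 and 3113, and overlapped. Of the cyclins and kinases of mitotic entry *Ccnb1* and *Aurka* rose, and *Ccnb1*, the cyclin B1 gene, was at 8746 and 6498, against 5728 and 5223 (0.45, SE 0.09, 0.00185). Its partner *Cdk1* was at 3707 and 3699, against 3680 and 3852. *Aurkb* was at 4334 and 4204, against 3609 and 3538 (0.24, SE 0.08, 0.0268).

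Checkpoint genes went both ways after SRSF3 knockdown. *Cdc20*, the activator of the anaphase-promoting complex, was at 4732 and 3424 scaled reads in SRSF3 A and B, against 2986 and 2706 in GFP (0.49, SE 0.09, adjusted p = 0.00095). *Mad2l1*, whose product holds CDC20 back, was at 4235 and 3526, against 2776 and 2931 (0.43, SE 0.09, 0.00276). *Bub1* was the lower one, at 4655 and 4547, against 6025 and 6068 (-0.41, SE 0.08, 0.00158), and was between 5789 and 7655 in every library of the other groups. *Zwilch* was at 2732 and 3025, against 3507 and 3836 (-0.36, SE 0.09, 0.0042). It was at 2734 and 3424 after SRSF6 and at 2796 and 3530 after SRSF4 knockdown, and neither passed. In each knockdown but SRSF1 both letters were below their own GFP library, which every comparison shares. *Kif20a*, a kinesin of cell division, was at 8372 and 5483, against 5118 and 4407 (0.50, SE 0.10, 0.00125), and *Cenpf* also rose. *Bub1b*, *Cenpe* and *Top2a* did not pass. With only its own libraries and those of GFP in the fit, 1 member passed. Without GFP replicate A 6 members passed, without SRSF3 replicate A 7, without GFP replicate B 13 and without SRSF3 replicate B 15.

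In the cytoplasm after SRSF3 knockdown 2 of 39 members rose (5.13%, against 7.19% of all genes) and 1 fell (2.56%, against 6.76%), shares below those of all genes. *Ccnb1* was at 8645 and 8538 scaled reads in SRSF3 A and B, against 6445 and 6390 in GFP (0.42, SE 0.12, adjusted p = 0.0286), with the replicates of each group close together. *Orc1* was at 2170 and 1242, against 1312 and 1008 (0.51, SE 0.13, 0.0201), and *Bub1* at 807 and 344, against 967 and 720 (-0.67, SE 0.21, 0.0479). Both overlapped between the groups, with the same direction in A and in B. Without SRSF3 replicate A, GFP replicate A or GFP replicate B none passed, nor in a fit of these libraries alone, and without SRSF3 replicate B 6 members did.

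After SRSF2 and SRSF7 knockdown 1 member each passed, in the whole cell. With only the libraries compared in the fit, 2 members passed for SRSF2 in the whole cell and 3 for SRSF7 in the cytoplasm. In the whole cell after SRSF2 knockdown *Cdc20* rose (1 of 39, against 2.59% of all genes), at 4045 and 3327 scaled reads in SRSF2 A and B, against 2986 and 2706 in GFP (0.37, SE 0.09, adjusted p = 0.0268), and none fell (background 3.41%). The call was lost without SRSF2 replicate A, SRSF2 replicate B or GFP replicate A. In the cytoplasm none passed after SRSF2 knockdown (limma, background 0.769% higher and 1.08% lower), with 4 members at an unadjusted p below 0.05, against 18.3% of all genes. After SRSF7 knockdown in the whole cell *E2f1* fell (1 of 39, against 0.636%) and none rose (background 0.453%). *E2f1* was at 800 and 1064 in SRSF7 A and B, against 1281 and 1336 in GFP (-0.50, SE 0.11, 0.0445), and the call was lost whichever of the 4 libraries was left out. In the cytoplasm of SRSF7 cells no member passed (0.0399% higher and 0.0342% lower over all genes), 5 had an unadjusted p below 0.05 (11% of all genes), and 9 of 39 had changes above 0, with a median of -0.16 over the members and -0.03 over all genes.

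After SRSF4, SRSF5 and SRSF6 knockdown no member passed in either fraction by limma, where few genes passed at all. With only the libraries compared in the fit, 6 members passed for SRSF6 and 3 for SRSF4 in the cytoplasm, and 1 for SRSF6 in the whole cell. In the whole cell the background was 0% higher and 0.0108% lower for SRSF4, 0% and 0.00539% for SRSF5, and 0.0108% in each direction for SRSF6, and 6, 3 and 5 members had an unadjusted p below 0.05 (9.07%, 6.26% and 8.81% of all genes). In the cytoplasm the background was 0% and 0.0114% for SRSF4, 0% and 0% for SRSF5, and 0.0342% and 0.057% for SRSF6, with 12, 1 and 2 members at an unadjusted p below 0.05 (17.1%, 5.14% and 14.9% of all genes). The 12 of SRSF4 included *Ndc80*, at 219.9 and 247 scaled reads in SRSF4 A and B, against 521 and 413 in GFP (adjusted p = 0.209), and *Ccne1*, at 8355 and 4254, against 4801 and 4139 (0.41, SE 0.17, 0.254). For *Ccne1* the A library stood apart and B was near GFP. Without SRSF4 replicate B 3 members passed in the cytoplasm, and without the block none passed in either fraction for these 3 knockdowns.

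SRSF1 and SRSF3 knockdown, compared directly, differed in 19 members in the whole cell (48.7%), 9 higher and 10 lower in SRSF1. Of all genes, 16.3% were higher and 17% lower. In the cytoplasm 8 members differed (20.5%), 5 higher and 3 lower, against 9.59% and 12.1% of all genes, so that their share was near that of all genes. Without the block 4 and 0 of these differences passed. *Bub1* differed most in the whole cell, with 7585 and 7655 scaled reads in SRSF1 cells, against 4655 and 4547 in SRSF3 cells (log2 difference 0.74, SE 0.08, adjusted p = 1.24e-05). *Zwilch* was higher in SRSF1 than in SRSF3 cells in the whole cell (0.62, SE 0.09, 7.54e-05) and lower in the cytoplasm (-0.75, SE 0.17, 0.00534). *Cenpe* (-0.52) and *Ndc80* (-0.48) were lower, and *Bub1b* (0.39) and *Cdt1* (0.41) higher, in SRSF1 than in SRSF3 whole cells. *Cdt1* (0.68, SE 0.13, 0.00201) and *Mcm5* (0.60, SE 0.13, 0.00392) led in the cytoplasm.

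Each knockdown was also set against the mean of the other 6. No GFP library enters this difference, though the GFP libraries share in the estimate of its error. SRSF1 differed in 9 members in the whole cell (23.1%, against 13.7% of all genes) and 5 in the cytoplasm (12.8%, against 8.56%), and SRSF3 in 16 (41%, against 42.2%) and 10 (25.6%, against 26.8%). For SRSF1, *Zwilch* led both fractions, higher in the whole cell (0.48, SE 0.07, adjusted p = 0.000179) and lower in the cytoplasm (-0.85, SE 0.13, 0.00077). For SRSF3, *Bub1* led the whole cell (-0.51, SE 0.06, 1.83e-05). SRSF6 and SRSF7, with few changes against GFP, differed from the other knockdowns in the cytoplasm. After SRSF6 knockdown 11 members differed (28.2%, against 19.2%): *Bub1* (0.80), *Kif11* (0.68), *Nuf2* (0.56), *Zwilch* (0.54), *Top2a* (0.53), *Ttk* (0.51) and *Mcm4* (0.43) were higher, all of them genes with a cytoplasmic ratio below the 0.832 of all genes in GFP, and *Mcm5*, *Plk1*, *Cdt1* and *Aurka* lower. *Bub1* was at 1309 and 806 in SRSF6 A and B, against 344 to 1084 over the libraries of the other knockdowns, so that B lay within their range. In GFP A and B, which do not enter this difference, *Bub1* was at 967 and 720. *Zwilch* was at 1475 and 1244 in SRSF6 A and B, near the 1523 and 1101 of GFP. Against GFP no member passed after SRSF6 knockdown in the cytoplasm. After SRSF7 knockdown 7 members differed (17.9%, against 4.89%) and all were lower: *Ccnb1* (-0.46), *Orc1*, *Kif20a*, *Pcna*, *Ccna2*, *Rrm2* and *Cdc6*. *Ccnb1* was at 5501 and 5435 in SRSF7 A and B, against 6198 to 8645 in the other knockdowns, with no overlap. Without the block none of these cytoplasmic differences passed.

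The use of exon bins was tested in the same way, and 29 changes in 20 bins of 12 members passed. Of the member bins, 5 of 745 changed use in the whole cell after SRSF1 knockdown (0.671%, against 0.452% of all bins), 3 after SRSF2 (0.403%, against 0.22%), 8 after SRSF3 (1.07%, against 1.06%) and 6 after SRSF7 knockdown (0.805%, against 0.15%). In the cytoplasm 1 of 655 changed after SRSF2 (0.153%, against 0.201%), 3 after SRSF3 (0.458%, against 1.12%) and 3 after SRSF7 knockdown (0.458%, against 0.0451%). Beside the *Zwilch* bins, those of 4 genes passed with every library left out.

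Several of these bins lie near the 3′ end of their gene. In *Cdc6* (ENSMUSG00000017499) the 2043 bases of bin E019 (chr11:98921894-98923936, mm10, plus strand), next to the 3′ end, were lower after SRSF3 knockdown in both fractions. It held 125 and 141 scaled reads in SRSF3 A and B of the cytoplasm, against 313 and 262 in GFP (change in use -1.26, SE 0.16, adjusted p = 1.69e-09), and 139 and 107 in the whole cell, against 185 and 178 (-1.07, SE 0.22, 0.000902), where the gene as a whole rose. Both passed with every library left out, but the whole-cell change did not without the block (0.558). The groups did not overlap in either fraction. In *Ccnb1* the 862 bases of E003 (chr13:100778747-100779608, minus strand), the third bin from the 3′ end, held 1204 and 1261 reads in SRSF3 whole cells, against 1453 and 1422 in GFP (-0.89, SE 0.13), and this gene rose as well. In *Top2a* the 297 bases of E004 (chr11:98993467-98993763, minus strand), near the 3′ end, were higher after SRSF7 knockdown. The bin held 260 and 200 reads in SRSF7 whole cells, against 95.2 and 107 in GFP (1.17, SE 0.15, adjusted p = 3.18e-09), and 90.9 and 66 in the cytoplasm, against 30.5 and 31.6. The next highest whole-cell group was SRSF1, at 150 and 132. In the cytoplasm (adjusted p = 0.0273) the call was lost without SRSF7 replicate A, GFP replicate A or GFP replicate B, without the block and with edgeR (0.07). As a gene, *Top2a* was at 28747 and 32561 in whole cells of SRSF7 A and B, against 34039 and 32055 in GFP.

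In *Cenpo*, a gene of the inner kinetochore, the 3′-most bin E001 (chr12:4196004-4197106, minus strand) was higher after SRSF2, SRSF3 and SRSF7 knockdown. It held 47.5 and 33.3 reads in SRSF2 whole cells, 65.1 and 68.5 in SRSF3 whole cells and 76.7 and 52.2 in SRSF7 whole cells, against 19.4 and 16.7 in GFP. The SRSF2 call (adjusted p = 0.0116) was lost without SRSF2 replicate A, GFP replicate A or GFP replicate B. This stretch also lies within *Adcy3*, and reads of the 2 genes could not be told apart. The bins of *Ccna2* that were lower after SRSF3 knockdown overlap *Exosc9* in the same way. In *Bub1* the 511 bases of E026 (chr2:127823448-127823958) held 203 and 228 reads in SRSF1 whole cells, against 107 and 88.2 in GFP (0.87, SE 0.16). As with *Zwilch*, the stretch held at most 1.86 reads in any cytoplasmic library. The call was lost without SRSF1 replicate A or GFP replicate B, and SRSF4, SRSF5 and SRSF6 B libraries reached 152, 154 and 149. The remaining bins, in *Ccna2*, *Tyms*, *Mcm7*, *Cdk1*, *Nuf2*, *Aurka* and elsewhere in *Top2a* and *Cenpo*, were lost when at least 1 library was left out. One *Mcm7* bin, E006, spans the hairpin of *Mir25*, which lies within that gene. The *Aurka* bin E012, at 3.34 and 44.1 in the cytoplasm of SRSF2 A and B against 41.8 and 50.4 in GFP, rests on 1 library, and without SRSF2 replicate B 30 member bins passed there.

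More members differed between the replicate letters, each with 8 libraries in a fraction, than between any knockdown and GFP. In the model of all 16 cytoplasmic libraries 19 members were higher and 5 lower in A than in B (against 26.2% and 25.7% of all genes), and in the whole cell 16 and 5 (against 19% and 20.3%). In the cytoplasm the largest differences were those of *Ttk* (0.90, SE 0.10, adjusted p = 4.94e-06), *Bub1* (0.86, SE 0.11, 9.95e-06), *Kif11* (0.71), *Top2a* (0.65) and *Mcm4* (0.63), which all have low cytoplasmic ratios. *Top2a* was at 7141 to 13270 scaled reads in cytoplasmic A libraries and 5141 to 8014 in B, and A was above B in all 8 groups. *Cdt1* (-0.31), *Aurka* (-0.25) and *Mcm5* (-0.21) were lower in A. *Ndc80* and *Zwilch* were higher in A in the cytoplasm (0.40 and 0.33) and lower in A in the whole cell (-0.45 and -0.25). In the whole cell *Ccne1* (0.57, SE 0.07), *Orc1* (0.45), *Rrm2* (0.43) and *Cdc6* (0.42), had the largest differences among members higher in A, and *Ndc80* the largest among those lower in A. Over the 39 members the A minus B difference followed the GFP ratio with a Spearman's rho of -0.73 for the cytoplasm, against 0.25 for the whole cell. This describes genes that share all libraries, and the GFP libraries enter both measures. The nuclear RNAs *Malat1* and *Neat1*, picked after the data had been seen, moved with the letter too. The cytoplasmic over whole-cell share of *Malat1* was 0.0104 to 0.0489 in A, highest after SRSF3 knockdown, and 0.00269 to 0.00811 in B, and that of *Neat1* was 0.0882 to 0.301 in A and 0.0446 to 0.0941 in B. A was above B in 8 of 8 groups for both, and their part in the member differences was not tested.

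**Figure D5:**
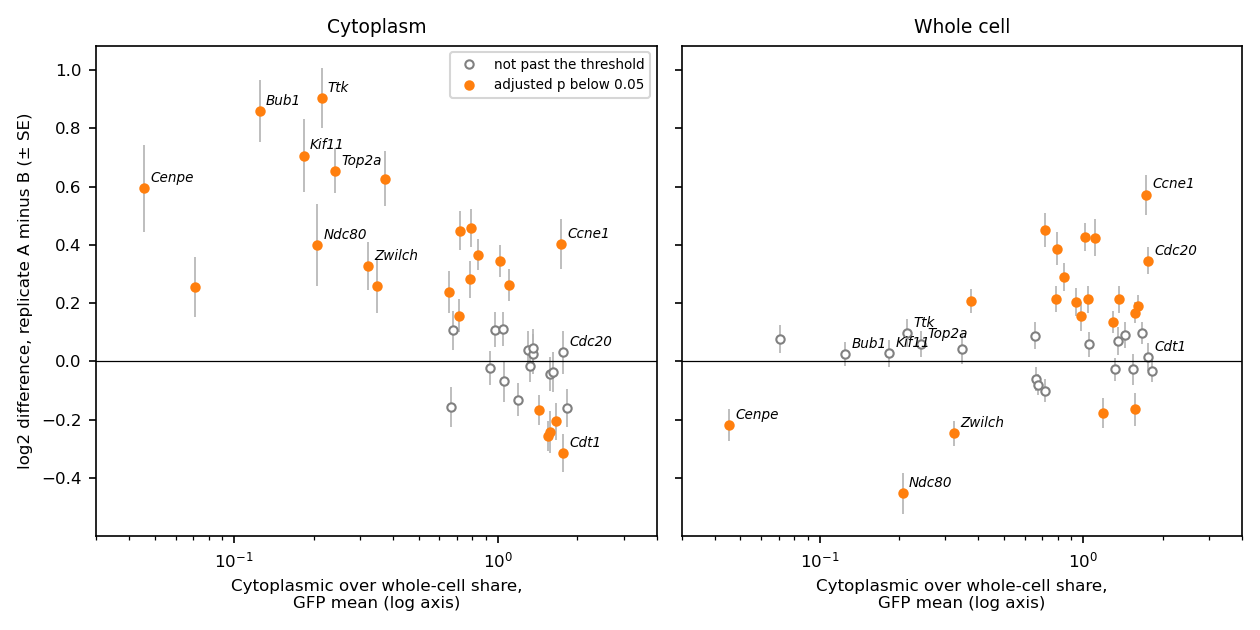
log2 difference between replicates A and B (A minus B, ± SE) of the 39 genes, cytoplasm in the left panel and whole cell in the right, against the cytoplasmic over whole-cell share of the gene in GFP on a log axis. Filled points passed at an adjusted p below 0.05, and in the cytoplasm *Ttk* and *Bub1* reach 0.90 and 0.86 among the genes of low ratio.

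Other genes of the same processes were taken from fixed lists of 56 replication, 95 mitosis and 30 E2F, DREAM and CDK inhibitor genes, all of which passed the filter. In the whole cell after SRSF1 knockdown 2 replication genes rose and 3 fell, 10 mitosis genes rose and 11 fell, and 1 regulator rose and 3 fell, beside 4.6% of all genes that rose and 6.32% that fell. *Ncapg*, a condensin subunit, was at 1817 and 2225 scaled reads in SRSF1 A and B, against 4076 and 4107 in GFP (-1.02, SE 0.11, adjusted p = 5.38e-05). *Pkmyt1*, the kinase that inhibits CDK1, was at 552 and 678, against 1028 and 1021 (-0.74). *Cenpp* (-0.82) and *Cenph* (0.65), both of the inner kinetochore, moved in opposite directions. In the cytoplasm of SRSF1 cells 9 mitosis genes fell and 3 rose, 1 replication gene fell, and 2 regulators rose (all genes, 2.44% rose and 3.47% fell). *Ncapg* was at 374 and 199, against 888 and 659 (-1.48), the spindle motor gene *Kif15* at 226 and 145, against 565 and 381 (-1.35), and *Cdc25c*, the phosphatase that activates CDK1, at 415 and 644, against 821 and 1168 (-0.92). *Cdkn1c*, the CDK inhibitor p57, was at 71.5 and 69.5, against 17.2 and 21.5 (1.82).

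After SRSF3 knockdown in the whole cell 9 replication genes rose and 7 fell, 22 mitosis genes rose and 8 fell, and 5 regulators rose and 10 fell. Of all genes, 16.1% rose and 17% fell, so that the share of the replication genes that rose was that of all genes. *Mcm8*, a helicase of recombination, was at 1707 and 1323 scaled reads in SRSF3 A and B, against 919.8 and 856 in GFP (0.75), *Lin37*, a subunit of the DREAM complex, at 778 and 559, against 355 and 399 (0.80), and *Tfdp2*, a partner of E2F factors, at 2091 and 2363, against 4050 and 3400 (-0.75). In the cytoplasm 2 replication genes rose and 6 fell, 3 mitosis genes rose and 2 fell, and 2 regulators rose and 2 fell (all genes, 7.19% and 6.76%). Among the replication genes that fell was *Tk1*, thymidine kinase, at 1597 and 2074, against 3304 and 3340 (-0.87). *Lin54* (1.39) and the condensin gene *Ncapg2* (1.35) were higher there, with A far above B: *Lin54* was at 1028 and 399, against 271 and 219. After SRSF2 knockdown in the whole cell 7 mitosis genes rose and 3 fell, 1 replication gene fell and 1 regulator rose (all genes, 2.59% and 3.41%). In the cytoplasm of these cells 1 mitosis gene rose and 2 fell, and 1 regulator rose (0.769% and 1.08%). Of these, *Cenpt* (0.86 in the cytoplasm, 0.65 in the whole cell) and *Lin37* (0.69 and 0.58) rose and the checkpoint gene *Mad1l1* (-0.65 and -0.76) fell in both fractions. After SRSF7 knockdown *Pkmyt1* fell in the whole cell (-0.61), the only gene of the lists that passed there.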

How the data were processed

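Poly(A)+ RNA of cytoplasm and whole P19 cells was sequenced after 7 knockdowns and a GFP control, with replicates A and B (32 libraries). Per the submitters' processing notes, the tools were CASAVA 1.8.2, Cufflinks 2.1.1, Bowtie2 2.1.0, TopHat2 in versions 2.0.9 and 2.0.10, and cutadapt (version not given in the sources used here), and the builds named were mm10 and mm9. The deposited gene tables hold a signal, estimated reads that the authors scaled to a common depth, one table per fraction. The authors' FPKM tables combine both replicates of a group and were used only to order genes by level per length. The deposited exon-bin tables (coordinates in mm10) hold signal made by the authors by dividing reads by 1 factor per library, and all values came out as whole reads within 0.01. Those reads summed to between 41417374 and 72741730 per library in the cytoplasm and between 38874542 and 59470730 in the whole cell. There were 0 columns of unmapped samples, and the columns of the authors' own comparisons (fold changes and p-values) were not used.

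Gene values were TMM-scaled, filtered (filterByExpr) and fitted as log2(value + 1) with limma 3.58.1 (R 4.3.3), the 16 libraries of a fraction together, with Benjamini-Hochberg adjustment over all genes. The pseudocount of 1 understates changes of low genes. The fits tested 17557 genes in the cytoplasm, 18548 in the whole cell and 19073 for the difference between a gene's changes in the 2 fractions. Use was tested for bins whose mean reached 5, with vooma weights and diffSplice (148459 bins in the cytoplasm, 179960 in the whole cell), with edgeR 4.0.16 on the recovered reads as an alternative. The scripts were tested on simulated data. The study's methods call A and B biological replicates and the labels name no separate cultures, so p-values measure the spread between these samples. The letter was used as a block because samples with the same letter deviated together in all 28 pairs of groups: the A minus B differences of genes correlated with Spearman's rho between 0.449 and 0.827 for cytoplasmic and between 0.238 and 0.814 for whole-cell libraries.

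The members and the lists of other genes were chosen with earlier results of these data known. Genes were named by rule: 10 fixed representatives, up to 8 members a comparison that passed with the largest changes, members that passed in at least 3 comparisons or in the fraction test, up to 10 members with bins that passed, and up to 5 other genes a comparison. Others were named after their values had been seen. Without TMM, filter or block, with a pseudocount of 10, with only the libraries compared, or with 1 library left out, the results were computed again.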

Additional observations from a re-analysis of the deposited data

Results flagged for a closer look

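*Zwilch* was the 1 member whose change after SRSF1 knockdown differed between the fractions by the test of that difference. Its log2 change in the cytoplasm minus its log2 change in the whole cell was -1.37 (SE 0.19, limma adjusted p = 0.00513). It was lower in the cytoplasm in both letters and higher in the whole cell in both. The 2 tables were scaled separately, so the difference compares changes within each table and not levels. The adjusted p ran from 0.0179 to 0.0825 over the 8 fits with 1 library left out.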

How the results depend on the processing

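Counts of members that passed are given first under the alternative and then as reported. Without the replicate block they were 0 against 10 for SRSF1, 0 against 1 for SRSF2, 2 against 14 for SRSF3 and 0 against 1 for SRSF7 in the whole cell, and 0 against 3 for SRSF1 and for SRSF3 in the cytoplasm. Over all genes, 149 passed for SRSF1 and 2120 for SRSF3 in the whole cell without the block, and 10 and 9 members had an unadjusted p below 0.05. Without the block, counts against the other 6 knockdowns were 1 against 9 (SRSF1), 0 against 1 (SRSF2), 4 against 16 (SRSF3) and 0 against 3 (SRSF7) in the whole cell, and 0 for SRSF1, SRSF3, SRSF6 and SRSF7 in the cytoplasm. SRSF1 against SRSF3 gave 4 members in the whole cell and 0 in the cytoplasm, and the difference between fractions after SRSF1 knockdown gave 0. Member bins without the block were 3 against 8 (SRSF3) and 2 against 6 (SRSF7) in the whole cell and 0 against 1 (SRSF2) in the cytoplasm. Without the filter on low values, SRSF1 had 5, SRSF2 0 and SRSF7 0 in the whole cell and SRSF1 had 1 in the cytoplasm. With only the libraries compared, counts were 2 (SRSF2), 1 (SRSF3) and 1 (SRSF6) in the whole cell, 10 (SRSF1), 0 (SRSF3), 3 (SRSF4), 6 (SRSF6) and 3 (SRSF7) in the cytoplasm, and 0 for the difference between fractions after SRSF1 knockdown. By edgeR, member bins were 4 for SRSF3 in the whole cell, 0 for SRSF2 and 1 for SRSF7 in the cytoplasm, and with a bin mean of at least 20 they were 2 for SRSF2 and 1 for SRSF7 in the cytoplasm.

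With 1 library left out, counts of members ranged over 0 to 7 (SRSF1), 0 to 1 (SRSF2), 6 to 15 (SRSF3) and 0 to 0 (SRSF7) in the whole cell, 1 to 2 (SRSF1), 0 to 6 (SRSF3) and 0 to 3 (SRSF4) in the cytoplasm, and 0 to 1 for the difference between fractions after SRSF1 knockdown. Counts of bins ranged over 2 to 5 (SRSF1), 0 to 2 (SRSF2), 5 to 9 (SRSF3) and 2 to 4 (SRSF7) in the whole cell, and 0 to 30 (SRSF2), 2 to 4 (SRSF3) and 0 to 2 (SRSF7) in the cytoplasm. The causes were not tested. Of 33 single results none changed sign, 33 passed with a pseudocount of 10, 32 without TMM, 20 without the filter, 16 with only the libraries compared and 2 without the block.

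The planned count tests (edgeR and DESeq2) on the gene tables, and edgeR without the block for the difference between fractions, were not run, because those values are not whole reads.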
